A study of Mus musculus with 9 samples.

Results

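The genes described here are Foxp3 and 8 others that mark regulatory T cells (Treg), mostly at the cell surface: Nrp1, Folr4, Nt5e, Entpd1, Gpr83, Itgae, Lrrc32 and Capg. They were chosen by name and make up 9 of the 23171 gene rows of the deposited table. All 9 names had a row, Folr4 being that table's older symbol for Izumo1r. Foxp3 is the transcription factor that fixes the regulatory fate of CD4 T cells, which hold back the responses of other T cells. Such cells arise in the thymus, or in the periphery from naive CD4 T cells that meet antigen under tolerising conditions, for example on dendritic cells in the steady state. Activated mouse T cells can carry several of these surface proteins without Foxp3, so none of them alone defines a Treg.

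RNA was sequenced from CD4 T cells of C57BL6 mice, taken from spleen and lymph nodes, in 9 libraries that form 3 groups of 3: naive, Hopx low and Hopx high. By the labels, every group shares the same handling: intraperitoneal chimeric antibodies that bring antigen to dendritic cells, a first sort 5 days later, 12 h of culture with antigen-presenting cells and a second sort. The labels give no age, no reporter allele and no gate for the sorts, and do not tell which animals gave the naive cells. Nothing in them states that each replicate is another animal, so a p-value here reflects the spread among these samples alone.

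Naive replicates 1 and 2, which the labels describe as 1A and 1B, differed at the median gene by about the sampling noise of reads of an assumed 100 bases (chi-square ratio 0.959 over 6907 genes, where the other within-group pairs gave 5.85 to 15.5). Their mean was used as 1 sample, which leaves naive with n = 2. Levels are in bases of coverage per megabase (Mb) of a library's summed coverage. That sum was 63.3, 86.5 and 289 Mb in naive, 330 to 442 Mb in Hopx low and 203 to 800 Mb in Hopx high. A single RNA, Gas5, made up 40.0%, 29.1% and 5.68% of it in naive replicates 1, 2 and 3. Gas5 made up 5.96%, 18.5% and 4.09% in Hopx low and 1.16%, 21.3% and 7.86% in Hopx high. The level of every other gene therefore also depends on the share of Gas5, and results scaled by the median gene are given below. A single read of 100 bases is worth 0.125 to 1.58 bases per Mb, most in naive replicate 1, so levels near or under 1 rest on few reads. The level of Xist, the RNA of the inactive X chromosome, was 89.1, 76.1 and 263 in the naive libraries and 0.400 or less in each Hopx library. This difference follows the split between naive and Hopx libraries. Its part in any comparison with naive cannot be told apart and was not tested. That covers every gene below, among them the X-linked Foxp3. Hopx itself had 8.95, 7.79 and 4.89 in Hopx high, 3.32, 6.90 and 3.29 in Hopx low, and was listed at 0, 0 and 1.64 in naive.

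The 250 bases upstream of the annotated start are shown for Foxp3, Nrp1 and Folr4, the genes whose levels passed a test below. The sequences are from RefSeq on GRCm38.p6, read 5′ to 3′ on the gene's strand, and capitals mark the motif matches described after them. They lie at chrX:7579426-7579675 on the plus strand, at chr8:128358823-128359072 on the plus strand and at chr9:14903768-14904017 on the minus strand.
Foxp3: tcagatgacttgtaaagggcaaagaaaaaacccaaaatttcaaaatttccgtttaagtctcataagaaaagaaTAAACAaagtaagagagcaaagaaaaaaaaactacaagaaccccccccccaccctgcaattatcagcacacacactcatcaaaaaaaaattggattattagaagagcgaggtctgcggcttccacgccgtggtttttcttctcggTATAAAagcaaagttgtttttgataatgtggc
Nrp1: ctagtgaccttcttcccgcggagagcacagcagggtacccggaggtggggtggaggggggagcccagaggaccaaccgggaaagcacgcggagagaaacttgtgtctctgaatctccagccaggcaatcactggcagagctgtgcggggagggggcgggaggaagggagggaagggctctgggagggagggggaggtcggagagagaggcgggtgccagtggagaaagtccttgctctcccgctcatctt
Folr4: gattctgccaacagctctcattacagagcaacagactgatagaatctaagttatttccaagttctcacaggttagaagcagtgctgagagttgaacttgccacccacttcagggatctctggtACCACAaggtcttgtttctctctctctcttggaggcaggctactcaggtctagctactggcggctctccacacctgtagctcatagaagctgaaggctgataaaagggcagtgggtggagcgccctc
The Foxp3 window is the first of 2 annotated starts and is AT-rich, with 37.6% G and C, against 50.0% for Folr4 and 64.4% for Nrp1. On both strands, 5 short motifs were searched. The forkhead core TAAACA and the TATA-like TATAAA each occur once in the Foxp3 window shown, and the Runx core TGTGGT occurs once in the Folr4 window, where it is read on the other strand. The NFAT core GGAAAA and the STAT motif TTCNNNGAA are in none of the 3 windows shown, and the Nrp1 window holds none of the 5. The window of the other Foxp3 start, not shown, holds 1 match each to GGAAAA and TTCNNNGAA. It has no match to the forkhead, Runx and TATA-like motifs. Among all 32851 windows of this length, 12.0% hold TAAACA, 12.4% TATAAA, 14.0% TGTGGT, 20.4% GGAAAA and 7.02% TTCNNNGAA. Such matches are common and describe letters, not binding. Windows were matched for 7 of the 9 genes, and Itgae and Lrrc32 are named only.

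Foxp3 RNA was present in every Hopx library and at or near 0 in naive. Hopx high replicates 1, 2 and 3 had 8.29, 3.61 and 4.71 bases per Mb of it, and Hopx low replicates had 4.47, 2.49 and 4.68. In naive it was listed at 0, 0 and 0.509. All 6 Hopx libraries lay above all naive libraries, while the Hopx groups overlapped. Hopx high, at 5.54 ± 2.45 (SD, n = 3), was above naive, at 0.254 ± 0.360 (n = 2), by 2.35 ± 0.62 (SE) on the log2(bases per Mb + 1) scale, which passed limma's test with Benjamini-Hochberg adjustment over 10825 genes (adjusted p = 0.0391). On that scale the ratio was 5.09, with a 95% interval of 2.07 to 12.5. The size depends on the pseudocount, and with 0.1 in place of 1 the log2 difference was 4.43. Foxp3 also entered the test through its Hopx libraries, since its naive mean lay below the filter of 1 base per Mb, and with no filter the difference was not called (adjusted p = 0.0799). The call is close to the threshold: without Hopx high replicate 1, the highest library, the difference was 2.06 (adjusted p = 0.178), and with same-numbered samples as a replicate block it was 2.57 (adjusted p = 0.0619). It was also lost without Hopx high replicate 2 or 3 and without Hopx low replicate 1 or 2 (adjusted p = 0.0814, 0.0986, 0.0681 and 0.0636). Without naive replicates 1 and 2 together the call did not hold either, but that fit leaves 1 naive sample.

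Foxp3 in Hopx low, at 3.88 ± 1.21, was 1.96 above naive on the log2 scale and did not pass (adjusted p = 0.254). The difference was 2.25 when naive replicate 3 was left out, which leaves 1 naive sample, the mean of replicates 1 and 2. The naive zeros carry limited weight because these are the shallowest libraries. At the mean level of Hopx low, naive replicates 1 and 2 together would have held 582 bases of Foxp3, about 6 reads of the assumed length, and held 0. Naive replicate 3 held 147 bases where 1122 would be found at that level. Between the Hopx groups each Hopx high library exceeded its same-numbered Hopx low library, by 0.0068 to 0.76 on the log2 scale. The group difference of 0.39 ± 0.56 did not pass (adjusted p = 0.992), and its 95% interval, −0.77 to 1.55, holds both no change and a clear rise. In bulk RNA, fewer cells that express a gene and less RNA in each cell cannot be told apart, for Foxp3 and for every gene below. Foxp3 lies on the X chromosome at 7573644 to 7595245 of GRCm38, plus strand. Ppp1r3f, Ccdc22, Flicr and Gm36995 overlap that span in the annotation, and since strand use in counting was not given in the sources used here, shared coverage cannot be told apart.

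**Figure D1:**
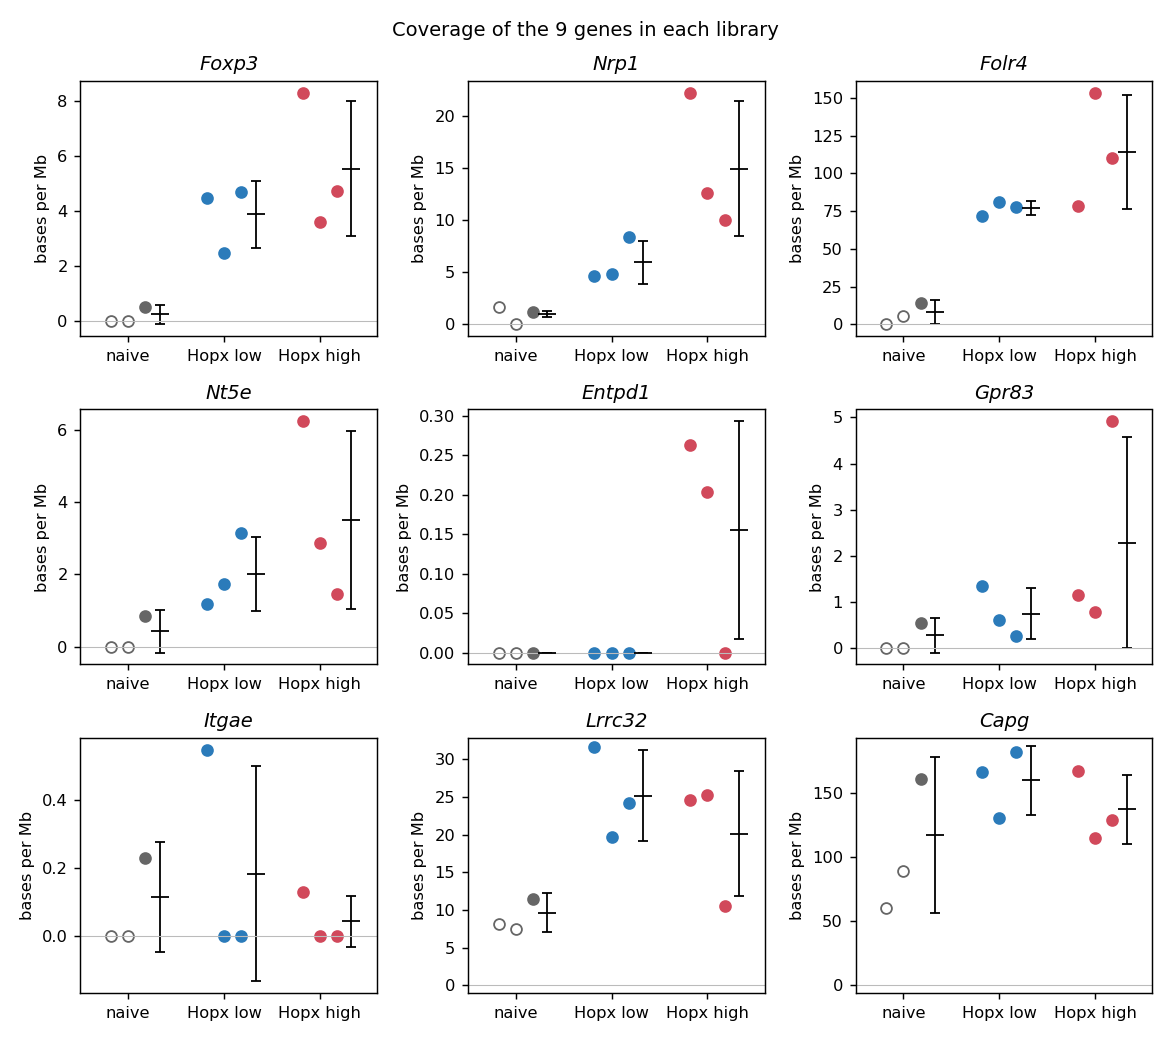
Level of each of the 9 genes in each library, in bases per Mb of summed coverage on linear axes that differ between panels. Points are libraries, coloured by group with naive replicates 1 and 2 open, and bars are the group mean and SD (n = 3 for Hopx high and Hopx low, n = 2 for naive with replicates 1 and 2 averaged). All 6 Hopx libraries lie above all naive libraries for Foxp3, Nrp1, Folr4 and Nt5e. Nrp1 is the only gene whose Hopx high libraries all lie above its Hopx low libraries, as they do for 4.49% of all tested genes.

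Folr4 was higher than naive in both Hopx groups. It encodes folate receptor 4, also called Juno, a relative of the folate receptors that does not bind folate and is abundant on Treg and on anergic CD4 T cells in mice. It was at 78.5, 153 and 110 bases per Mb for Hopx high, at 71.8, 81.3 and 77.6 for Hopx low and at 0, 5.36 and 14.0 for naive. The naive libraries all lay far below the lowest Hopx library, and the Hopx low libraries were close to each other. Hopx high (114 ± 37.6) was above naive (8.34 ± 8.01) by 3.90 ± 0.59 on the log2 scale, a ratio of 14.9 with a 95% interval of 6.34 to 35.2 (adjusted p = 0.000575). Hopx low (76.9 ± 4.78) was above naive by 3.39 ± 0.59, a ratio of 10.5 with an interval of 4.44 to 24.7 (adjusted p = 0.00967). The call in Hopx low was lost in the fit with a replicate block (3.25, adjusted p = 0.0806), without Hopx high replicate 3 (adjusted p = 0.0774) and without Hopx low replicate 2 (adjusted p = 0.0733). The size of both differences rested on the naive libraries. For Hopx high it was 4.84 without naive replicate 2, 4.91 without naive replicate 3 and 2.89 without naive replicates 1 and 2 together. For Hopx low it was 4.33, 4.40 and 2.37 in the same fits. The fits without naive replicate 3 and without naive replicates 1 and 2 together leave 1 naive sample. On the scale with a pseudocount of 1 Folr4 had the largest difference of the tested genes, but with 0.1 Foxp3 had a larger one than Folr4 (4.43 against 4.14 for Hopx high). Naive replicate 1 held 0 bases of Folr4, where 4868 would be found at the Hopx low mean. Both comparisons share the naive samples.

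Between the Hopx groups Folr4 differed by 0.51 ± 0.53 and did not pass (adjusted p = 0.992), with each Hopx high library above the Hopx low library of its number by 0.13 to 0.91. Folr4 lies on chromosome 9 at 14885814 to 14903949, minus strand. Gpr83, described below, is its neighbour: the 2 genes point towards each other with 15024 bases between their ends.

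Nrp1 encodes neuropilin-1, a receptor for semaphorins and VEGF that is high on Treg formed in the thymus and low on many Treg induced in the periphery. It was at 22.2, 12.6 and 10.1 bases per Mb for Hopx high, at 4.66, 4.81 and 8.37 for Hopx low and at 1.64, 0 and 1.17 for naive. The 3 groups did not overlap, and the order was Hopx high, Hopx low, naive. Hopx high (15.0 ± 6.43) was above naive (0.995 ± 0.246) by 2.93 ± 0.64, a ratio of 7.63 with a 95% interval of 3.01 to 19.4 (adjusted p = 0.0116). The size depends on the pseudocount, as the log2 difference was 3.72 with 0.1 in place of 1, and 3.83 with the values as deposited. With no filter it was not called (adjusted p = 0.0555). Without Hopx high replicate 1, the highest library, that difference was 2.62 and did not pass (adjusted p = 0.0887). Hopx low (5.95 ± 2.10) was 1.76 above naive and did not pass (adjusted p = 0.356). The difference was 1.89 without naive replicate 3, which leaves 1 naive sample.

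Between Hopx high and Hopx low Nrp1 differed by 1.17 ± 0.57 with all groups fitted, with a 95% interval of −0.03 to 2.37, and did not pass (adjusted p = 0.992). With the 6 Hopx libraries fitted alone the ratio was 2.25, with an interval of 1.17 to 4.30, and the unadjusted p of 0.0159 did not hold over all genes (adjusted p = 0.355, and 0.324 with a replicate block). Groups that do not overlap with Hopx high above Hopx low were found for 4.49% of all tested genes. The pairs by number differed by 0.24 to 2.04. Nrp1 lies on chromosome 8 at 128358604 to 128503363, plus strand, and spans the microRNA gene Mir1903.

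Nt5e and Entpd1 encode the ectonucleotidases CD73 and CD39, which act in turn to make adenosine from extracellular ATP at the Treg surface. Nt5e was at 6.26, 2.87 and 1.45 bases per Mb for Hopx high, at 1.17, 1.74 and 3.15 for Hopx low and at 0, 0 and 0.844 for naive. It was lowest in naive, and the Hopx groups overlapped widely. Its log2 difference from naive was 1.59 ± 0.64 in Hopx high (adjusted p = 0.209) and 1.10 in Hopx low (adjusted p = 0.672), and neither passed. Without naive replicate 3 the difference in Hopx high was 2.03, from a fit that leaves 1 naive sample. Entpd1 was detected in 2 of 9 libraries only, at 0.262 and 0.203 in Hopx high replicates 1 and 2, from 210 and 74 bases. It was listed at 0 in Hopx high replicate 3 and in every Hopx low and naive library, fell below the filter of a mean of 1 base per Mb and was not tested. In the authors' deposited table Entpd1 has a Hopx high to Hopx low ratio of 61.8 (unadjusted p = 0.118), whose denominator, 0.852 deposited units, is only the base that the authors added to every row. Nt5e lies on chromosome 9 at 88327197 to 88372092 and Entpd1 on chromosome 19 at 40612366 to 40741602, both on the plus strand, and the pseudogenes Gm16027 and Gm8783 and the sense-intronic transcript AC166063.1 overlap Entpd1 in the annotation.

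Gpr83 and Itgae were low throughout. Gpr83, a G protein-coupled receptor enriched in mouse Treg, was at 1.15, 0.786 and 4.92 bases per Mb for Hopx high, at 1.35, 0.613 and 0.253 for Hopx low and at 0, 0 and 0.533 for naive. A single library, Hopx high replicate 3, carried most of the Hopx high mean. The mean of Gpr83 over the 8 samples, 1.20, was just past the filter, and its log2 differences of 1.19 in Hopx high and 0.44 in Hopx low against naive, and of 0.75 between the Hopx groups, did not pass (adjusted p = 0.386, 0.889 and 0.992). Itgae encodes integrin alpha E (CD103), which holds T cells at epithelia by binding E-cadherin. It was seen only as 0.129 in Hopx high replicate 1, 0.548 in Hopx low replicate 1 and 0.228 in naive replicate 3, from 103, 230 and 66 bases, and was not tested. About 1 to 2 assumed reads in each of 3 libraries do not place Itgae in any group. Gpr83 lies on chromosome 9 at 14860210 to 14870789 and Itgae on chromosome 11 at 73090583 to 73147446, both on the plus strand, and Haspin lies within the Itgae span on the other strand.

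Lrrc32 and Capg were found in all 9 libraries. Lrrc32 encodes GARP, which anchors latent TGF-beta on activated Treg. It was at 24.6, 25.2 and 10.5 bases per Mb for Hopx high, at 31.6, 19.7 and 24.2 for Hopx low and at 8.21, 7.49 and 11.5 for naive. The Hopx low libraries all lay above naive, and Hopx high replicate 3 lay within the naive range. The log2 differences from naive were 0.91 in Hopx high (adjusted p = 0.544) and 1.29 in Hopx low (adjusted p = 0.589), and the difference between the Hopx groups was −0.38 (adjusted p = 0.992). None passed, and the last became 0.013 without Hopx high replicate 3.

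Capg encodes an actin filament capping protein of the gelsolin family, which is not a surface protein and has been used as a marker of activated Treg. It was at 167, 115 and 129 bases per Mb for Hopx high, at 167, 131 and 182 for Hopx low and at 60.4, 88.9 and 161 for naive. Naive replicate 3 lay within the range of both Hopx groups. The log2 differences of 0.30 and 0.53 from naive and −0.22 between the Hopx groups did not pass (adjusted p = 0.855, 0.797 and 0.992), and their signs depended on the setting: with median-gene scaling the Hopx groups differed by 0.046, and without naive replicates 1 and 2 the differences from naive were −0.24 and −0.021. Lrrc32 lies on chromosome 7 at 98489283 to 98502181 and Capg on chromosome 6 at 72544391 to 72562983, both on the plus strand.

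Of the 9 genes, 7 passed the filter and 3 were called higher in Hopx high than in naive, where 3.3% of all tested genes were, and 0 were called lower (0.499% of all genes). In Hopx low 1 of the 7, Folr4, was called higher than in naive, where 0.296% of all tested genes were, and 0 lower (0.00924%). All 7 differences from naive were positive in both Hopx groups, as were 56.9% of all genes in Hopx high and 74.1% in Hopx low. In Hopx high 5 of the 7 had every library above naive (15.3% of all genes), and in Hopx low 5 of the 7 (19.1%). Gpr83 was among the first 5 and Lrrc32 among the second, and Foxp3, Nrp1, Folr4 and Nt5e were in both. The naive means of Foxp3, Nrp1, Nt5e and Gpr83 lay below the filter on low values, so these genes passed it through their Hopx libraries, and these counts and the medians describe the genes that passed and do not support a direction. The median log2 difference of the 7 from naive was 1.59 in Hopx high and 1.29 in Hopx low, beside 0.15 and 0.38 over all tested genes. Between Hopx high and Hopx low 0 of the 7 were called in either direction, and 0 had an unadjusted p under 0.05 in that limma fit. Of all 10825 genes 0 were called there (0%), while 224 were higher and 263 lower at an unadjusted p under 0.05 (2.07% and 2.43%). The 6 Hopx libraries alone gave 53 higher (0.489%) and 16 lower calls (0.148%), none of them among these genes, where Foxp3 had an adjusted p of 0.801, Folr4 0.661, Gpr83 0.647, Nt5e 0.766, Lrrc32 0.783 and Capg 0.857. Of the 7 differences between the Hopx groups 5 were positive (30% of all genes). Only 1 gene, Nrp1, had every Hopx high library above every Hopx low library (4.49% of all genes). The median difference between them was 0.49 for the 7 genes and −0.25 over all genes. That all-gene shift became 0.00 with scaling by the median gene. Both comparisons with naive use the same naive samples and do not count as separate evidence.

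**Figure D2:**
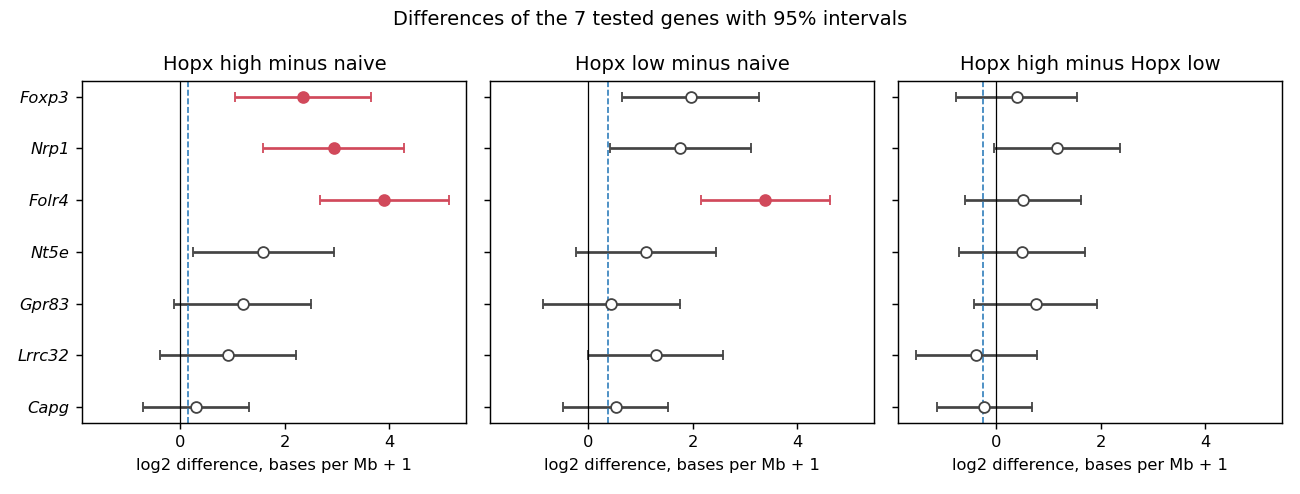
Log2 difference in log2(bases per Mb + 1) with its 95% interval for the 7 tested genes in each comparison. The solid line is at 0, the dashed line is the median of all tested genes, and filled red points are called genes. On this scale Folr4 has the largest difference from naive in both Hopx groups, at 3.90 and 3.39, and all intervals for Hopx high against Hopx low include 0.

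Per kb of exon, the genes spanned a wide range of levels within the same cells. In Hopx high Capg had 54.3 and Folr4 49.2 bases per Mb per kb, Lrrc32 had 4.29, Nrp1 1.53 and Foxp3 1.21. Gpr83 had 0.449, Nt5e 0.410, Entpd1 0.0278 and Itgae 0.00937. In Hopx low Capg was at 63.2, Folr4 at 33.1, Lrrc32 at 5.37, Foxp3 at 0.848 and Nrp1 at 0.608. In naive the level per kb was 46.5 for Capg, 2.06 for Lrrc32, 3.60 for Folr4, 0.102 for Nrp1 and 0.0556 for Foxp3. Folr4 was above Lrrc32, and Lrrc32 above Nrp1 and Foxp3, in 6 of 6 Hopx libraries. Foxp3 and Nrp1 were above Nt5e in 6 of 6 as well. Neighbours that changed places between libraries were Nrp1 and Foxp3, with Nrp1 higher in 2 of 6, Nt5e and Gpr83, with Nt5e higher in 4 of 6, and Capg and Folr4, with Capg higher in 5 of 6. Exon lengths are unions over GENCODE vM21 transcripts, from 2320 bases for Folr4 to 9785 for Nrp1, and the sources used here do not give the authors' own annotation.

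**Figure D3:**
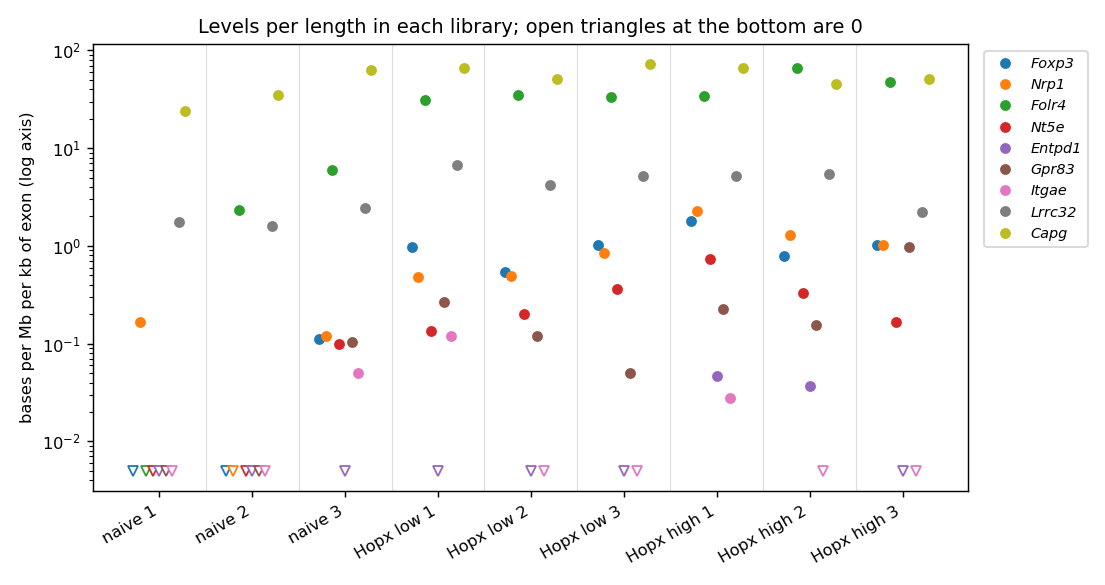
Level per kb of exon (bases per Mb per kb, log axis) of the 9 genes in each library, with open triangles at the bottom for genes listed at 0. In every Hopx library Folr4 lies above Lrrc32, which lies above both Nrp1 and Foxp3, and Entpd1 and Itgae are at 0 or lowest.

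Other genes of the Treg program were taken from a list without the 9. Of 23 tested, 11 were called higher and 0 lower in Hopx high than in naive (3.3% and 0.499% of all genes). Differences were positive for 22 of the 23 (56.9% of all genes), with a median log2 difference of 2.37 (0.15 over all genes). In Hopx low 4 were called higher and 0 lower (0.296% and 0.00924% of all genes), with a median of 1.59 (0.38 over all genes). Some of the 23 passed the filter on low values through their Hopx libraries. Gzmb, for example, was listed at 0 in every naive library, and Socs2 at 0, 0 and 0.308. The counts and medians therefore describe the genes that passed and do not support a direction. Ikzf2, the transcription factor Helios, had the smallest p (6.06, adjusted p = 6.86e-06 in Hopx high; 4.96, adjusted p = 0.000115 in Hopx low). Lag3, an inhibitory receptor for MHC class II, differed by 3.21 (adjusted p = 0.000603) and 2.54 (adjusted p = 0.0232), and Cd83, an immunoglobulin family receptor of activated cells, by 3.64 (adjusted p = 0.00104) and 3.04 (adjusted p = 0.0257). Tnfrsf4, the costimulatory receptor OX40, rose by 3.33 in Hopx high (adjusted p = 0.000787), and its 2.43 in Hopx low did not pass (adjusted p = 0.0526). Many of these genes also respond to activation in T cells that are not Treg. Between the Hopx groups limma called 0 of the 23, 3 were higher and 1 lower at an unadjusted p under 0.05 (2.07% and 2.43% of all genes), and the median was 0.46.

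Of 29 tested factors that act on the Foxp3 locus, 1 was higher and 0 lower in Hopx high than in naive, a share near the 3.3% of all genes called higher, with a median of −0.24. That one was Uhrf1, which helps maintain DNA methylation after replication (3.25, adjusted p = 0.00136). In Hopx low limma called 0 of the 29, where 0.296% of all genes were called higher and 0.00924% lower. At an unadjusted p under 0.05, 2 were higher, and the median was 0.046. The share of all genes at that unadjusted p against naive is not given here, so the count of 2 has no background.

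Around the ectonucleotidases, 14 of 22 listed genes of the adenosine axis were tested and 1 was called higher in Hopx high than in naive (3.3% of all genes). This was Adora2a, the receptor through which adenosine inhibits T cells. It was at 356, 226 and 249 bases per Mb for Hopx high, at 235, 236 and 197 for Hopx low and at 67.5, 59.1 and 71.2 for naive. All Hopx libraries lay well above naive (2.00 for Hopx high, adjusted p = 0.0140). The list's median was −0.09, and Adora1, Adora3, Entpd2, Entpd3 and Entpd8 were listed at 0 in all 9 libraries.

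Among genes that activate or bind latent TGF-beta, as GARP does, 8 of 16 were tested and 1 was called higher in Hopx high than in naive (3.3% of all genes). Itgb8, the integrin chain that releases TGF-beta held by GARP, was at 24.1, 16.7 and 12.0 bases per Mb for Hopx high, at 5.41, 2.47 and 6.13 for Hopx low, and was listed at 0 in all 3 naive libraries. The 3 groups did not overlap (4.17 on the log2 scale for Hopx high against naive, adjusted p = 0.000664). Itgb8 passed the filter on low values through its Hopx libraries. Between the Hopx groups it differed by 1.73 and passed neither with all groups fitted (adjusted p = 0.769) nor with the 6 Hopx libraries alone (adjusted p = 0.0782). The list's median against naive was 0.47.

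Of the gelsolin family relatives of Capg, 8 of 9 were tested, with 1 higher and 1 lower in Hopx high than in naive (3.3% and 0.499% of all genes) and a median of −0.35. Scin, the actin-severing protein scinderin, was at 15.8, 16.0 and 16.1 bases per Mb for Hopx high, at 2.88, 1.49 and 2.62 for Hopx low, and was listed at 0 in naive. The Hopx high libraries were nearly identical and all above Hopx low. With no naive coverage, Scin passed the filter on low values through its Hopx libraries. Scin was called against naive (4.08, adjusted p = 0.000485), and between the Hopx groups it was called in the 6 Hopx libraries (2.38, adjusted p = 0.00847) but not with all groups fitted (adjusted p = 0.274). Avil, advillin, was lower in Hopx high than in naive in limma's test (−2.28, adjusted p = 0.0420). It was at 0.125, 0.445 and 0.344 for Hopx high, at 0.155, 1.63 and 2.51 for Hopx low and at 0.837, 7.97 and 6.37 for naive. Avil thus passed the filter through its naive and Hopx low libraries, so its call does not support a direction.

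Partners of the remaining genes gave no calls by limma in Hopx high against naive, where 3.3% of all tested genes were called higher and 0.499% lower. For lists this short, 0 calls is near those shares. Of semaphorins, plexins and other neuropilin partners 0 of 11 tested were called (median 0.50; 1 higher and 2 lower at an unadjusted p under 0.05). Gipc1, an adaptor that binds the neuropilin tail, differed by 1.39 (adjusted p = 0.117). Of the Itgae partners and related integrins 0 of 5 were called (1 higher at an unadjusted p under 0.05), among them Itgal, the alpha chain of LFA-1 (0.81, adjusted p = 0.473), and Cdh1, the E-cadherin ligand, was listed at 0. Of the folate genes 0 of 2 were called (0 at an unadjusted p under 0.05), the transporters Slc19a1 and Slc46a1, and the receptors Folr1 and Folr2 were listed at 0 in all libraries. Shares of all genes at an unadjusted p under 0.05 against naive are not given here, so these unadjusted counts have no background.

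**Figure D4:**
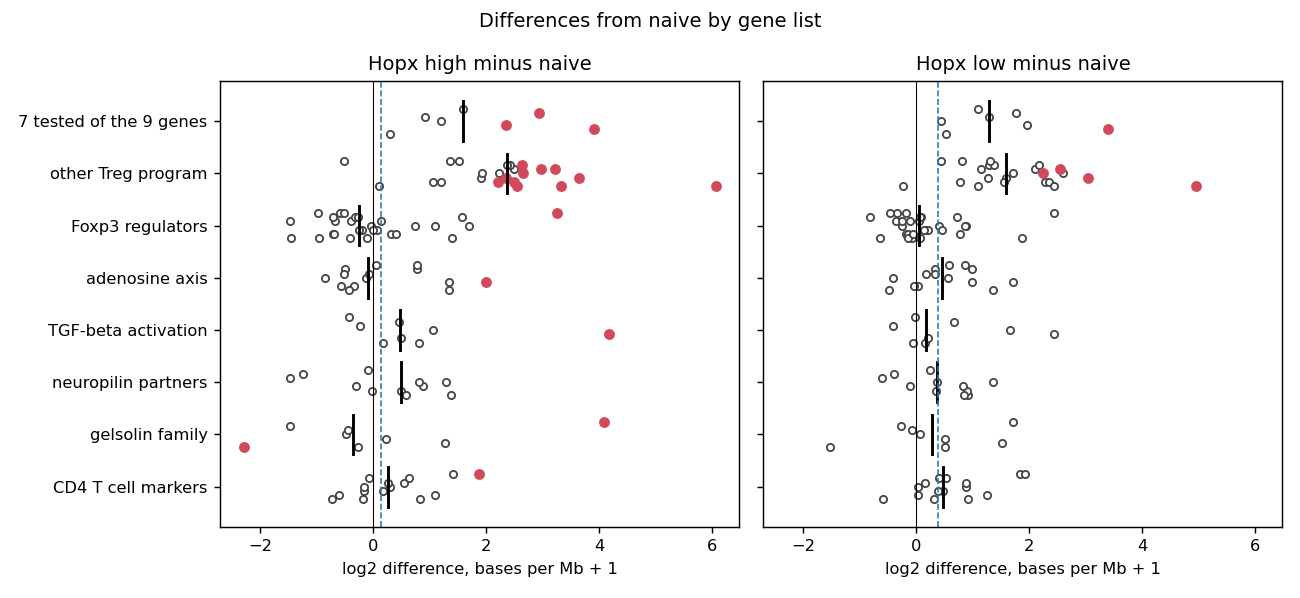
Log2 differences from naive of the tested genes of 8 lists (points, filled red where called) in Hopx high and Hopx low, with the list median as a bar and the median of all 10825 tested genes as a dashed line. Other Treg program genes have a median of 2.37 in Hopx high and 1.59 in Hopx low against naive, and the lists of regulators, adenosine, TGF-beta, neuropilin and gelsolin genes have medians of −0.35 to 0.50 in Hopx high. Genes that passed the filter on low values through their Hopx libraries are included.

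Markers of other cells were measured beside these results. The 15 CD4 T cell markers summed to 3301 to 4983 bases per Mb in naive, 5084 to 7462 in Hopx low and 3732 to 7391 in Hopx high. Of the CD8 T cell markers, Cd8a was listed at 0 in all libraries but one, at 0.362. Cd8b1, the other, was present in every library, at 14.8 to 31.1. B cell markers summed to 4.17 to 10.01 in Hopx high, 21.6 to 29.99 in Hopx low and 13.4 to 44.05 in naive, and MHC class II genes to 26.4 to 75.4, 31.4 to 89.7 and 28.0 to 51.5. Cd79a, a part of the B cell receptor, was lower in Hopx high than in naive in limma's test (−3.03, adjusted p = 0.00771). It was at 0.261, 0.635 and 1.10 for Hopx high, at 8.29, 3.71 and 6.79 for Hopx low and at 13.7, 8.18 and 13.8 for naive. Cd79a thus passed the filter through its naive and Hopx low libraries, so its call does not support a direction. Monocyte markers summed to 66.3 to 191 in Hopx high, 84.8 to 174 in Hopx low and 21.6 to 87.8 in naive, mostly from Cst3 and Ctss, with Lyz2 at most 3.59 and Csf1r at most 0.907. The 12 dendritic cell markers summed to 722 to 1237 in Hopx high, 1369 to 2341 in Hopx low and 1162 to 2945 in naive, mostly from Ccr7, which T cells express as well, and Bst2. Fscn1 had 5.25 to 31.4 and Zbtb46 at most 7.03, and 5 of the 12, Clec9a, Xcr1, Clec10a, Siglech and Cd209a, were listed at 0 in all libraries. NK cell markers summed to 109 to 148 in Hopx high, 73.7 to 130 in Hopx low and 8.91 to 38.2 in naive. Of the 8 NK markers, Klrb1c and Klra8 were listed at 0 in all libraries. Ncr1 had at most 0.231 and Klrk1 at most 0.140, while Klrd1 reached 3.03 and Prf1 4.08, both in naive replicate 3. Nkg7 and Eomes, which effector T cells also express, were called higher in Hopx high than in naive by limma (3.75, adjusted p = 0.00613, and 2.36, adjusted p = 0.0105). Nkg7 was listed at 0 in every naive library and passed the filter on low values through its Hopx libraries. NK sums were higher in every Hopx library than in every naive library, as Foxp3, Nrp1 and Folr4 were, while monocyte sums overlapped between naive and both Hopx groups. The part of either list in the differences of Foxp3, Nrp1 and Folr4 was not tested.

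The 4 genes whose profile over the 8 samples was closest to that of Foxp3 were Bri3bp, Rad54b, Cnnm1 and Plxnb2, at a root mean square distance of 0.206, 0.228, 0.236 and 0.243 on the centred log2 scale, among 9506 candidates. Of the other genes described here Nrp1 came nearest, at rank 124 with a distance of 0.435, followed by Nt5e at rank 304 and Lrrc32 at rank 1102. These ranks are among all tested genes and not among the candidates, which were limited by level and name. Folr4, at rank 3469, was the farthest of them.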

How the data were processed

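The 9 libraries hold RNA of mouse CD4 T cells, depleted of ribosomal RNA and prepared with Ion Total RNA kits, per the labels' protocols. The submitters' processing notes name bedtools and mm10. No aligner, annotation or strand setting was found, and these stay not given in the sources used here. The authors deposited a coverage signal per gene and library, which the values show to be summed bases plus 1, scaled to the mean library total. The deposited table also holds the authors' ratio of group means and an unadjusted p-value.

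Here the added base was removed (bases were whole in 100% of values within 1e-06) and values were set to bases per Mb. Genes whose mean over the 8 samples reached 1 base per Mb were kept. The test, from limma 3.58.1 (R 4.3.3), used log2(bases per Mb + 1), took the 3 groups in 1 model with a trend in the variance, and called genes at 0.05 after Benjamini-Hochberg adjustment. The fit was also run on simulated data with changes placed only between Hopx high and Hopx low, so that run does not check the comparisons with naive. The members and gene lists were chosen with earlier results of these data known. All 9 members are named, with up to 4 called genes per list by smallest p, or up to 2 by highest mean where none passed, and the 4 genes closest to Foxp3. Not every gene so picked is printed. Same-numbered Hopx samples deviated together (r = 0.41, 0.38 and 0.16 over 8945 genes). Their numbers were taken as pairs in the differences by number and in the replicate block, while the main fit used no pairing. The block with all groups also ties naive samples to Hopx samples by number, with the mean of naive replicates 1 and 2 as number 1. Naive replicates 1 and 3 deviated with the same-numbered Hopx low samples (r = 0.49 and 0.58). With the same-numbered Hopx high samples r was lower, at 0.21 and 0.08. Each result was recomputed with other scalings, filters, a smaller pseudocount, no trend, a replicate block, fewer groups and left-out replicates. Python 3.11.15 with pandas 2.3.3, numpy 2.4.6 and matplotlib 3.10.9 made the tables and figures.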

Additional observations from a re-analysis of the deposited data

How the results depend on the processing

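Folr4 was called higher in Hopx high than in naive under all 20 alternatives, Nrp1 in 18 of 20 and Foxp3 in 9 of 19 (a filter at a mean of 5 bases per Mb removes Foxp3 and gives no value). Among these alternatives, the fits without naive replicate 3 and without naive replicates 1 and 2 together leave 1 naive sample. Foxp3 was also lost with no filter on low values (adjusted p = 0.0799), with the values as deposited (0.0543) and with only the 2 groups (0.0801), and Nrp1 with no filter (0.0555). Folr4 in Hopx low was lost with no filter (0.167) and with only the 2 groups (0.268). Signs reversed for uncalled differences: Capg, as given above (0.046, −0.24 and −0.021), Gpr83 in Hopx low against naive with quantile normalization (−0.34) and Lrrc32 between the Hopx groups without Hopx high replicate 3 (0.013, also in the 6 Hopx libraries alone; −0.58 to 0.013 over the replicates left out). Folr4 in Hopx low averaged 67.5 with median-gene scaling.

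Calls over all genes, higher and lower, were 357 and 54 for Hopx high against naive and 32 and 1 for Hopx low against naive. They became 585 and 171, and 56 higher, with median-gene scaling. Quantile normalization gave 458 and 273, and 3 lower. No filter gave 215 and 25, and 7 higher. A pseudocount of 0.1 gave 35 lower, and 57 higher. No trend gave 2 lower in Hopx low, and the values as deposited 26 lower, and 56 and 0. Naive 1 and 2 as separate samples gave 717 and 149, and 164 and 2. Only the groups compared gave 30 lower, 4 higher, and 53 and 16 between the Hopx groups. A replicate block gave 25 lower and 11 higher, and 60 and 15 in the 6 Hopx libraries. Leaving out a replicate gave 137 to 2465 and 13 to 241 for Hopx high, 15 to 2690 and 1 to 83 for Hopx low, and 0 to 45 and 0 to 12 between the Hopx groups, with all highest counts without naive replicate 3. Alternatives added after seeing the data gave for the 6 Hopx libraries 15 and 22, 61 and 18, and 7 and 2 without Hopx high replicates 1, 2 and 3, and 52 and 11, 16 and 10, and 3 and 2 without Hopx low replicates 1, 2 and 3, and 52 and 19, and 295 lower in Hopx high against naive, without naive replicates 1 and 2 together. The cause of these changes was not tested. The fits without naive replicate 3 and without naive replicates 1 and 2 together leave 1 naive sample, so in them naive has no spread of its own. The naive samples, few and shallow, limit every comparison with them.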
